A study of Mus musculus with 4 samples.

Results

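Most CpG-rich regions at mouse transcription start sites carry almost no methylation in liver, and a small number carry methylation on about as many reads as not. These partly methylated start-region windows were chosen by their methylation level, so the level itself is a description and not a finding. A window was a 500-bp bin of an autosome with at least 8 cytosines measured in all 4 mice, within 1 kb of the transcription start site (TSS) of a RefSeq transcript on mm10, and with a mean methylation between 30% and 70% in each of the 4 mice. Windows within 50 kb of 16 listed imprinted genes were left out. The rule gave 328 windows among 23737 autosomal start-region windows, or 1.38%, out of 36584 windows with at least 8 such cytosines on the autosomes and chromosome X. Their nearest TSS belonged to 298 different genes.

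Methylation was measured by enhanced reduced representation bisulfite sequencing (ERRBS), in which MspI digestion enriches CpG-rich DNA and bisulfite turns unmethylated cytosines, but not methylated ones, into T. Whole livers came from males aged 6 to 8 weeks on a normal diet, 2 from a mixed background (named Mixed-1 and Mixed-2 here) and 2 C57BL/6 (named B6-1 and B6-2), and each mouse was 1 sample. Where 4 values follow each other, their order is Mixed-1, then Mixed-2, then B6-1, then B6-2. C57BL/6J contributed to the Mixed mice, whose other ancestry is not specified. The strains were kept at different institutions and the B6 libraries were deeper, so strain, housing and depth cannot be told apart. The measured cytosines of the 328 windows were read 213892 and 237654 times in the Mixed mice and 314152 and 294597 times in the B6 mice, and a single window had between 134 and 6091 such reads in a mouse. Repeated reads of 1 amplified fragment are not independent molecules.

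In mammals, DNA methylation at cytosines of CpG pairs is copied at cell division, and dense methylation of a CpG island at a TSS is a known mark of stable silencing. At an imprinted gene the allele from 1 parent is methylated and the other is not, in every cell, which is the textbook source of intermediate levels. Germline genes, which act in meiosis and in the control of transposons, are known to be methylated at their start sites in somatic tissues. In DNA from a whole organ, a level near the middle of the scale cannot tell 1 methylated allele per cell from a mixture of methylated and unmethylated cells, and bisulfite reads 5-methylcytosine and 5-hydroxymethylcytosine alike.

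The stretches below show the DNA of 6 such windows, each 200 bases of the plus strand of GRCm38 with no annotated UTR, with measured CpGs in capitals (a single capital at an end is a CpG cut by the end). Fignl2 had the most measured cytosines and Fut11 the most even methylation among windows of over 50. Boll and Dazl are germline genes of the same RNA-binding family, Esr1 encodes the estrogen receptor alpha, and Gm10505 had the smallest p-value between strains.
Fignl2, chr15:101053674-101053873: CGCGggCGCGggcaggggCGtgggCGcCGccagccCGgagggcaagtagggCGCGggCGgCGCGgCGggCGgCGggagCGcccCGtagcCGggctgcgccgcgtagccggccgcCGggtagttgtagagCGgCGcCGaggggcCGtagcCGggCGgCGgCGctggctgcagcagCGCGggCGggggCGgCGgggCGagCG
Fut11, chr14:20695582-20695781: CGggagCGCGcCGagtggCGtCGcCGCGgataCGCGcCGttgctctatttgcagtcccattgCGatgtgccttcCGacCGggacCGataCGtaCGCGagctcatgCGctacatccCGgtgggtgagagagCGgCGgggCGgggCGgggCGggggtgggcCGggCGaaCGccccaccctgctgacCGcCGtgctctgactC
Boll, chr1:55362777-55362976: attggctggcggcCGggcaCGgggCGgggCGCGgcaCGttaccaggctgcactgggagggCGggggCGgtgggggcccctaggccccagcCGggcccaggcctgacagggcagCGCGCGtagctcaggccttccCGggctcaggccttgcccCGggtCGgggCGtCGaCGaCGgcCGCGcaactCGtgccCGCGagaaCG
Dazl, chr17:50293200-50293399: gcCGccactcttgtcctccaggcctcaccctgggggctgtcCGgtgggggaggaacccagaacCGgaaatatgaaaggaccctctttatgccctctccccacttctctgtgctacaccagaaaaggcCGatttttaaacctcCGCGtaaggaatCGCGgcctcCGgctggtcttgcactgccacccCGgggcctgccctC
Esr1, chr10:4712692-4712891: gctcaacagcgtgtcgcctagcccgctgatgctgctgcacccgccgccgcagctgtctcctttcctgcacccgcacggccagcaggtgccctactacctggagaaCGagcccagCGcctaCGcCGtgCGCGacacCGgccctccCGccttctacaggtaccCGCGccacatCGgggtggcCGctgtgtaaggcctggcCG
Gm10505, chr17:27324632-27324831: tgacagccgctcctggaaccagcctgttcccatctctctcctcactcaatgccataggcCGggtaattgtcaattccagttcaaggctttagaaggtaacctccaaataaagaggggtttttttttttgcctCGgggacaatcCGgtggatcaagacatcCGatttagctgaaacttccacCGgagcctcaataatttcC

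The Fignl2 stretch was exonic, and its 65 measured cytosines averaged 63.1%, 64.8%, 69.0% and 60.3%. The 41 cytosines of the Fut11 stretch, which crosses an exon end, averaged 49.2%, 48.9%, 42.6% and 49.7%. In the intronic Boll stretch the 33 cytosines ranged from 21.7% to 80.9% as means of the 4 mice. The 11 cytosines of the intronic Dazl stretch ranged from 61.0% to 99.5%, since it covers only the methylated side of a window whose other side was unmethylated. The Esr1 stretch held 18 measured cytosines between 7.08% and 52.3%, and the Gm10505 stretch, outside any annotated gene, held 9 between 45.3% and 74.5%.

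Across the 328 windows, the mean level of the 4 mice had a median of 48.4% and ran from 31.5% to 69.1%. The median window was at 49.3%, 48.9%, 47.9% and 48.2% in the 4 mice, while the median of all start-region windows lay between 0.214% and 0.244%. The rule's bounds fell inside a sparse but continuous range. The members nearest the lower bound were at Gm15743, with 30.3% in its lowest mouse, and Npas1, with 30.5%. Just outside it were Espn with 29.9% and LOC108167983 with 29.9%. The members nearest the upper bound were at Gm34307 and Esrrg, each with 69.9% in its highest mouse, and just outside it were Rps6kl1 and Dxo, each with 70.1%. Of the other start-region windows, 22577 were below 30% in every mouse, 574 were above 70% in every mouse and 238 lay between or on both sides of a bound.

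**Figure D1:**
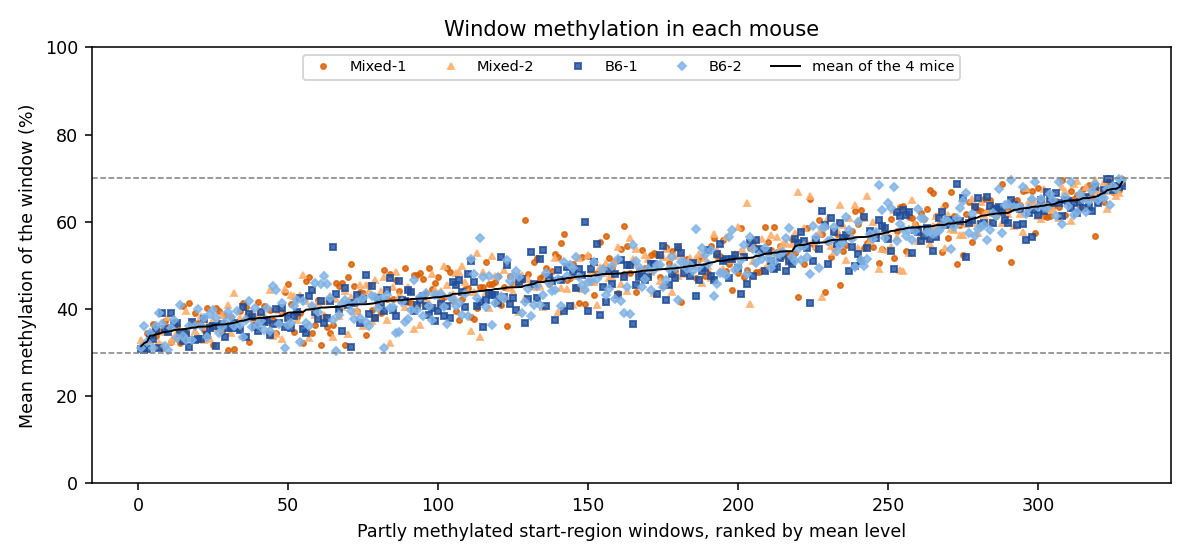
Mean methylation (%) of each of the 328 partly methylated windows in each mouse, ranked by the mean of the 4 mice (line), with dashed lines at the bounds of 30% and 70% that chose them. The points of the 4 mice follow the line, with a median range between the highest and lowest mouse of 7.94 percentage points.

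The level of a window was similar in the 4 livers. The range between its highest and lowest mouse had a median of 7.94 points and ran from 0.979 to 24.6 points, although the bounds themselves limit how far the mice could spread. Across the 328 windows, Pearson's r of the levels was 0.86 between the B6 mice, 0.81 between the Mixed mice and 0.79 to 0.82 between mice of different strains. These are descriptions over windows that share libraries and differ in depth.

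Most cytosines in the windows were themselves partly methylated. Of the 5155 cytosines in the 328 windows, 82.0% had a mean of 20% to 80% over the 4 mice, 10.7% were below 20% and 7.27% were above 80%. In 201 windows, or 61.3%, at least 80% of the cytosines were intermediate in this sense. With intermediate taken as 30% to 70%, this held for 81 windows. In 121 windows the share of cytosines with a mean of 20% to 80% lay between 20% and 80%, and in 6 windows it was 20% or less. In the other start-region windows, 1.03% of 698971 cytosines were intermediate. Those windows failed the level rule, which used the same values, so the rule sets much of this contrast and it is a description. At 1228 CpGs measured on both strands, the strands differed by a median of 5.34 points, and 89.8% of these pairs were within 20 points.

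**Figure D2:**
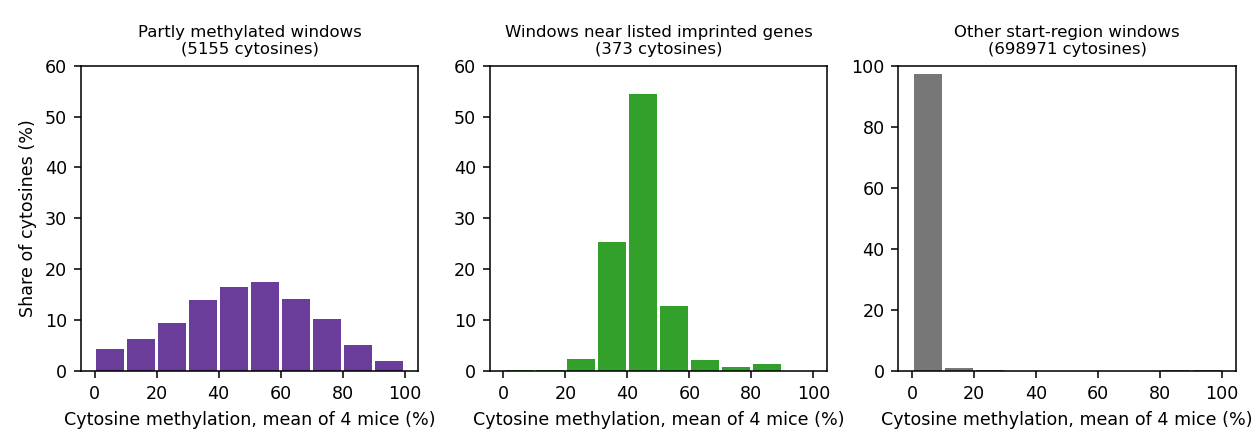
Share of cytosines (%) in bins of 10 points of methylation (mean of 4 mice) in the partly methylated windows, the 20 partly methylated windows near listed imprinted genes, and the other start-region windows; the right panel has its own vertical scale. The partly methylated windows form a broad hump with 17.4% of cytosines at 50% to 60%, the imprinted ones a narrow peak with 54.4% at 40% to 50%, and the other windows hold 97.1% below 10%.

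The 20 windows that met the same rule near the listed imprinted genes, among them windows of Gnas, Peg3, Plagl1 and Airn, had a smaller spread over their cytosines in every mouse. All 20 had at least 80% intermediate cytosines, and 98.1% of their 373 cytosines were intermediate. The median SD of methylation over the cytosines of a window was 19.9, 20.2, 19.6 and 19.7 points in the partly methylated windows and 9.18, 8.90, 8.86 and 8.63 points in the imprinted ones. The difference was 10.7, 11.3, 10.8 and 11.0 points, higher in 4 of 4 mice with a mean of 11.0 ± 0.256 (SD over mice, n = 4; exact two-sided sign-flip test, p = 0.13, the smallest 4 mice allow). The imprinted windows were also covered more deeply, with a median of 60.8 reads per cytosine against 51.5, and had more measured cytosines, with a median of 18 against 11. The part of depth and cytosine number in the difference was not tested. The same windows were measured in each mouse, so the 4 mice are not separate samples of windows, and several of the 20 share a locus, as at Gnas.

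The most even window with at least 15 cytosines lay at Gm52563, a noncoding gene with a predicted transcript (chr2:130635000-130635499). Its 21 cytosines averaged 63.4%, 62.0%, 59.6% and 62.0%, with an SD within the window of 10.5 points. Fut11, a fucosyltransferase gene, followed among windows with many cytosines: the 51 cytosines of chr14:20695500-20695999 lay between 26.8% and 67.5%, and the window averaged 52.5%, 50.2%, 43.5% and 50.1%. The adjoining Fut11 window nearer the TSS, with 66 cytosines, averaged 47.5%, 44.8%, 41.0% and 46.3%. Both Fut11 windows were lowest in B6-1. Catsperg1, which encodes a subunit of the sperm calcium channel, had 22 exonic cytosines at 34.9%, 32.3%, 31.0% and 39.1%. Cela1, an elastase gene, was at 32.4%, 32.6%, 39.1% and 35.6%. The remaining even windows were at Gm15743, 4930404N11Rik, Adad1 and Esr1, with SDs within the window of 11.4, 11.5, 12.7 and 13.6 points.

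The window with the most measured cytosines, 120, was in an exon of Fignl2 (chr15:101053500-101053999), 649.5 bp downstream of the TSS at its centre. It averaged 64.9%, 64.3%, 66.5% and 61.2%. Single cytosines ranged from 27.5% to 90.1%, so the window was neither uniform nor divided. Zmiz1, which encodes a transcriptional coregulator, had 88 cytosines at 40.3%, 39.8%, 36.8% and 36.5%, of which 81 were in UTR. Bloc1s3, a gene of lysosome-related organelles, had 82 exonic cytosines at 39.5%, 38.0%, 35.3% and 36.3%. The lowest lay on the side nearer the TSS, and 27 were below 20%. Scx, the tendon transcription factor gene scleraxis, had 58 cytosines at 41.6%, 38.6%, 35.03% and 36.4%, and Zfp541 had 56 at 38.1%, 46.7%, 37.8% and 42.7%. In these windows of Zmiz1, Bloc1s3 and Scx both Mixed mice were above both B6 mice, by a few points. The adjoining Zmiz1 window with 41 cytosines had the reverse order, at 33.9%, 31.5%, 35.2% and 36.2%.

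**Figure D3:**
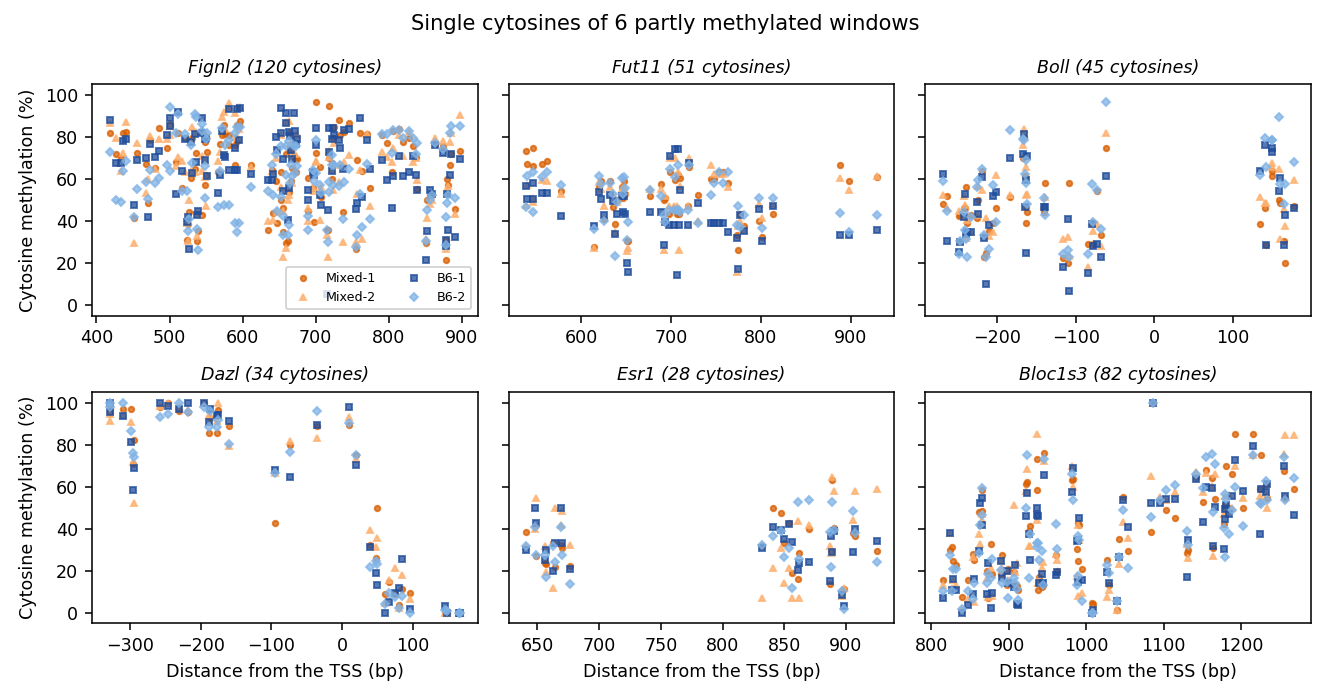
Methylation (%) of each measured cytosine in the 4 mice against its distance from the TSS nearest the window's centre (bp, positive downstream) in 6 partly methylated windows. Fignl2, Fut11, Boll and Esr1 show mostly intermediate cytosines, and Bloc1s3 has 27 below 20%, all on the side nearer the TSS. Dazl shows a step. Its 16 cytosines above 80% averaged 94.1%, its 10 below 20% averaged 5.40%, and the other 8 averaged 54.4%.

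Germline genes made up 9 of the 328 windows, at 9 genes. Of the 46 start-region windows of the fixed list of germline genes, 9 or 19.6% were partly methylated, 22 were above 70% in every mouse, 13 were below 30% and 2 lay between or on both sides of a bound. The median level of the 46 windows was 68.8%, against 0.221% over all start-region windows. Of all start-region windows, 1.38% were partly methylated. The list was chosen with earlier results of these data known.

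Ddx4, which encodes the germ cell RNA helicase vasa, had 50 cytosines in a window over its TSS (chr13:112652000-112652499), all in UTR, at 63.5%, 61.0%, 64.3% and 69.2%. Boll, a translational regulator of meiosis, had 45 cytosines at 45.1%, 47.6%, 44.8% and 51.9% in a window over 1 of its annotated starts (chr1:55362500-55362999). The Boll window 500 bp further along the chromosome was at 6.59% in the mean of the 4 mice. The one beyond it, centred 3.5 bp from another Boll start, was at 0.909%, so the starts of this gene differed. Rnf17, a tudor domain gene of germ cells, had 23 cytosines at 63.5%, 48.7%, 62.6% and 58.4%, lowest in Mixed-2. Tdrd1, which acts with piRNAs, had 22 at 51.9%, 44.6%, 47.8% and 45.6%.

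Dazl differed in kind from these. Its window over the TSS of a predicted transcript (chr17:50293000-50293499) averaged 59.4%, 59.4%, 58.0% and 57.9%, a spread of under 2 points among the mice. The SD within the window was 40.2 points. The 16 cytosines above 80%, lying between 329 bp upstream and 9 bp downstream of the TSS, averaged 94.0%, 93.7%, 95.1% and 93.5%. The 10 cytosines below 20%, at 60 to 167 bp downstream, averaged 5.70%, 6.80%, 5.72% and 3.39%. The 2 windows upstream were at 94.1% and 93.8%, centred at -129.5 and -629.5 bp from another Dazl start. The methylated side of the step thus reached from the first start to beyond this other start, which the window at 94.1% spans. The next window downstream, with 42 cytosines, was at 0.240%. The mean of the window thus averaged both sides of a step. The meiotic cohesin gene Smc1b was at 47.3%, 52.8%, 51.8% and 54.7%, with 10 cytosines. The meiotic chromosome axis gene Hormad2 was at 62.0%, 57.0%, 55.6% and 60.9%. Adad1 was at 44.9%, 33.6%, 41.6% and 56.4%, the widest of these genes.

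**Figure D4:**
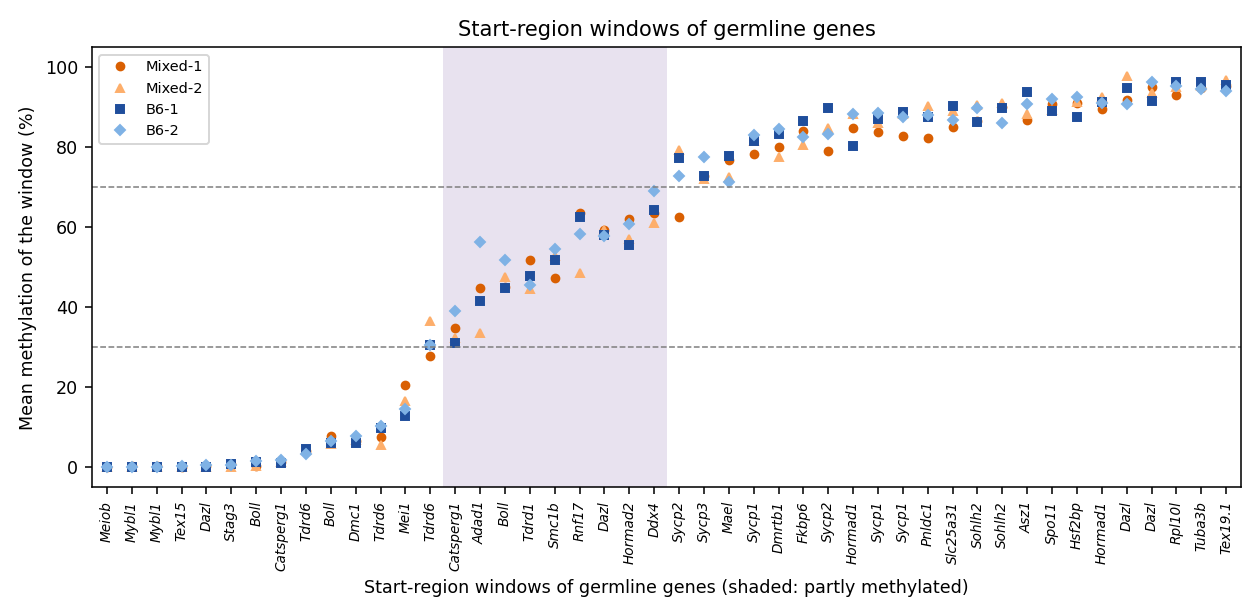
Mean methylation (%) in each mouse of the 46 start-region windows of germline genes, ranked by the mean of the 4 mice, with the 9 partly methylated windows shaded and dashed lines at 30% and 70%. The windows run from 0% at Meiob to 95.4% at Tex19.1, and Dazl and Boll each have windows in more than 1 class.

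MicroRNA genes had 10 of 179 windows (5.59%) among the 328, at 7 genes, against 1.38% of all start-region windows. The window centred at -522.5 bp from the start of Mir219a-2 was at 36.2%, 36.6%, 35.6% and 39.5% and the adjoining one over its start at 65.6% in the mean of the 4 mice. Mir671 had a run of 3 windows, of which the one with most cytosines was at 53.3%, 62.5%, 61.6% and 56.7%. Mir6991 was at 41.2%, 43.2%, 35.6% and 36.8%, and Mir6913 at 49.3%, 45.4%, 40.7% and 36.5%, each with both Mixed mice above both B6 mice. Mir7235 had the same order, at 62.4%, 64.6%, 59.6% and 58.9%, and Mir6911 the reverse, at 36.4%, 38.6%, 39.4% and 46.0%. A microRNA precursor lies within a longer transcript, whose own start may be elsewhere.

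Of 76 windows of further imprinted genes, 1 was among the 328, at Magel2, a paternally expressed gene of the Prader-Willi region, with 61.4%, 62.0%, 62.9% and 61.2%. Another 2 of the 76 were between 30% and 70% in every mouse but lay within 50 kb of a listed imprinted gene. They were left out, so the rule itself lowers the share of this list. Clustered protocadherin genes had 1 of 20, at Pcdhga4, with 67.4%, 66.6%, 67.9% and 69.7%. Olfactory and vomeronasal receptor genes had 1 of 5, at Vmn2r29, with 55.4%, 60.8%, 50.4% and 55.6%, and 52.8% of that window was repeat sequence. Zinc finger genes had 2 of 421, at Zfp541 and at Zfp809, which represses retroviral DNA and was at 38.2%, 34.9%, 51.0% and 51.4%, with both Mixed mice below both B6 mice. Solute carrier genes had 2 of 415, at Slc16a8 with 47.3%, 33.3%, 43.0% and 36.0% and at Slc37a1 with 64.5%, 69.2%, 67.2% and 65.5%. Developmental transcription factors had 1 of 451, at Gata4, with 8 cytosines at 49.4%, 41.3%, 38.5% and 40.7%. As shares these were 1.32% of the windows of further imprinted genes, 5% for protocadherins, 20% for the 5 receptor windows, 0.475% for zinc fingers, 0.482% for solute carriers and 0.222% for developmental transcription factors, against the same 1.38%.

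Lists of genes that mark liver cell types had few windows. Of 21 start-region windows of hepatocyte genes, 10 of Kupffer cell and leukocyte genes and 27 of endothelial, stellate and bile duct genes, 0 were partly methylated, where 1.38% of all start-region windows were, and these few windows cannot show a difference from that share. The labelled tissue could be checked only thinly, since 3 of 11 hepatocyte marker genes had a common cytosine near their start. Of these, Apoa2 with 11 cytosines was at 0% to 1.22% in the 4 mice, Fgb with 5 at 22.3% to 35.6% and Hnf4a with 18 at 23.1% to 32.3%. Of 12 Kupffer cell and leukocyte genes 4 had one, among them Adgre1 with 3 at 76.9% to 89.0%, Cd79b with 4 at 79.0% to 86.0%, and Coro1a with 40 at 6.97% to 8.92%. The part of cell mixture in the levels was not tested.

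The window of Esr1 (chr10:4712500-4712999) had 28 cytosines and averaged 31.3%, 32.9%, 30.7% and 31.0%, just above the lower bound. Its centre was 783.5 bp downstream of the start of a predicted transcript, with 19 cytosines in an exon and 9 in an intron.

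Some partly methylated windows stood at the edge of, or in a run with, other methylated bins. In only 30 of the 328 windows did both adjoining bins have at least 4 measured cytosines. Of these, 9 were below 30% on one side and above 70% on the other, 4 were below 30% on both sides, 0 were above 70% on both, and in 17 at least 1 neighbour was itself between 30% and 70%. Of the 328 windows, 53 adjoined another, in 24 runs. The longest run, 4 windows at Zmiz1 (chr14:25606500-25608499), averaged 40.3%, 34.2%, 38.4% and 48.9% from the first window to the last, as means of the 4 mice. A run of 3 crossed the start of Bdh1, a gene of ketone body metabolism, and that of Gm15743 on the opposite strand, at 35.2%, 41.2% and 40.5%. A run of 3 at Lrfn4 averaged 41.8%, 50.8% and 51.6%.

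**Figure D5:**
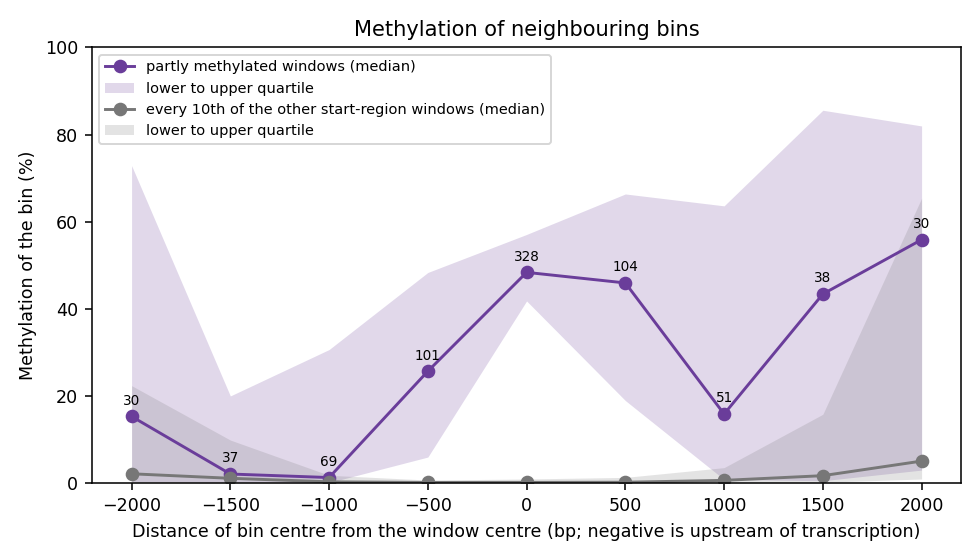
Median methylation (%) of 500-bp bins with at least 4 measured cytosines by their distance from the window's centre (bp, oriented by transcription) for the partly methylated windows, with the number of windows measured at each distance, and for every 10th other start-region window; shading runs from the lower to the upper quartile. Around the partly methylated windows the median was 25.7% at 500 bp upstream and 46.0% at 500 bp downstream, with few windows measured at the outer distances.

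The sides differed around these windows as a description. The adjoining bin upstream had a median of 25.7% over 101 windows and that downstream 46.0% over 104, and at 1000 bp the medians were 1.32% over 69 windows and 15.9% over 51. Around every 10th other start-region window, the adjoining bins had medians of 0.197% and 0.248%.

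In sequence and position the partly methylated windows differed from start-region windows at large. They held fewer measured cytosines, with a median of 11 against 24, a median GC content of 57.6% against 63.6% and a median observed-to-expected CpG ratio of 0.454 against 0.769. A CpG island (CpGi) overlapped 99 of them, or 30.2% (95% Wilson interval 25.5% to 35.4%), against 87.1% of all start-region windows and 19 of the 20 imprinted ones. The share depended on the cytosine minimum and was 53.0% with at least 12 cytosines and 16.8% with at least 5. It was 15.8% with strands merged, where the minimum number of sites was lowered as well. Of the 1206 partly methylated windows away from a TSS, among 12121 such windows, 14.6% overlapped a CpGi. The nearest TSS was that of a long noncoding RNA for 22.6% of the windows, against 7.91% of all start-region windows, and that of a protein-coding gene for 72.3% against 90.5%. A curated transcript gave the nearest start for 56.4% against 68.2%. The centre lay more than 500 bp downstream of the TSS for 32.9% of the windows, against 15.9%, and more than 500 bp upstream for 10.7%, against 4.17%. Of their cytosines, 40.7% were in exons outside UTRs, 25.8% in introns, 25.4% in UTRs and 8.09% outside genes. Repeats rarely covered them: 2 windows were more than 50% soft-masked, and the median was 5.20%.

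Short motifs that contain a CpG were searched on both strands of each window as plain letters. TGCCGC, the letters of the ZFP57 motif, was in 22.3% of the 328 windows, in 35.3% of all start-region windows and in 12 of the 20 imprinted ones. GCGGGA, the core of E2F motifs, was in 25.9% against 53.3%, the E-box CACGTG in 11.0% against 11.2%, and the cyclic AMP response element TGACGTCA in 0.915% against 1.97%. The windows also had fewer CpGs than start-region windows at large, with a median of 18 against 37, and the part of CpG number in these shares was not tested.

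Coverage at the cytosines of the partly methylated windows was lower than at other start-region windows in every mouse. The ratio of the median coverage was 0.855, 0.903, 0.822 and 0.844, below 1 in 4 of 4 mice with a mean of 0.855 ± 0.0341 (SD over mice, n = 4; exact two-sided sign-flip test, p = 0.13, the smallest 4 mice allow). The highest mean coverage of a window was 103 reads per cytosine.

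On chromosome X, of which a male cell has 1 copy, 7 of 500 start-region windows met the same bounds. They were at Drp2, Gjb1, Gm44, Rbm3os, Rps6ka6, Slc6a14 and Taf7l, and their mean levels ran from 44.4% to 59.9%. The median SD within these windows was 25.2 points. Gjb1, which encodes connexin 32 of hepatocytes, had 9 cytosines at 50.1%, 44.0%, 43.5% and 40.0%.

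The study compared the livers of the 2 strains, and 0 of the 328 windows differed between them at an adjusted p under 0.05 with a difference of at least 10 points (quasi-binomial logistic model on reads summed per window, moderated with limma). Over all 35877 autosomal windows 0%, or 0 windows, were called. At an unadjusted p under 0.05 there were 44 of the 328 windows, or 13.4%, against 4.94% of all windows and 11.3% of the 2161 windows with a mean level of 30% to 70%. Of the 44, 28 were higher in Mixed. With limma on the logit of the window mean and with edgeR on methylated and unmethylated counts, 0 of the 328 and 0 of all 35877 windows were called as well. Fisher's exact test on reads pooled over the mice of a strain takes no account of the spread between mice. It called 17 of the 328 windows and 260 of all 35877, or 0.725%. Without Mixed-2, 1 of 381 windows was called, at 3110070M22Rik, a window that was not among the 328 and was named after its value was seen. That fit called 65 of all 37449 windows, or 0.174%, and the one without Mixed-1 called 42 of all 36733, or 0.114%, and 0 of its 365 partly methylated windows. In each the lone Mixed mouse was assumed to vary like the B6 mice.

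Both Mixed mice were above both B6 mice in 84 windows, or 25.6%, against 17% of all windows, and below them in 44, or 13.4%, against 16.6% of all windows. Among the windows of 30% to 70% these shares were 22.5% and 15.6%. The median difference of Mixed minus B6 was 0.797 points over the 328 windows, 0.578 over the windows of 30% to 70% and 0 over all windows. It ran from -14.7 to 20.8 points, and 18 windows differed by 10 points or more. The bounds limit how large a difference could be.

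The smallest p was at Gm10505 (chr17:27324500-27324999), with 11 cytosines at 65.2% and 65.9% in the Mixed mice and 41.3% and 48.1% in the B6 mice. The groups did not overlap, and Mixed minus B6 was 20.8 points (adjusted p = 0.443, limma-moderated model over all windows). Adra1b, the alpha-1B adrenergic receptor gene, had 38 cytosines at 46.7% and 48.4% against 38.5% and 34.4%, a difference of 11.1 points (adjusted p = 0.612). Dazl, with its tight levels given above, had a difference of 1.43 points (adjusted p = 0.683). The p-values came from reads summed over a window and the differences from means over its cytosines. At Dazl the coverage on each side of the step thus entered the p-value, which did not test the 1.43 points. In the Lrfn4 run, both Mixed mice were above both B6 mice in all 3 windows. In simulated data with the real read numbers, the model recovered 99 of 100 windows changed by 30 points and 29 of 100 changed by 15 where reads spread 2.49 times as widely as binomial ones in variance. It recovered 24 and 2 where they spread 5.98 times. Each simulation used 1 setting of this spread for all windows, which real windows need not share, so real recovery may be lower. The windows of 30% to 70% here were moderated towards a spread of 3.22 times, so differences of about 15 points were mostly not detectable.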

How the data were processed

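ERRBS data of the livers of 4 male mice, 2 Mixed and 2 B6, were used. The authors sequenced 50-cycle single-end reads, mapped them to mm10 (with BSMAP by their methods, while the submitters' processing notes name Bismark and SAMtools, with no versions) and kept CpG cytosines with a coverage of at least 10. The deposited files give, for each cytosine and strand of 1 mouse, the coverage as a raw count of reads and the percent of reads that were C or T, without normalization. Sites lie on CpGs of GRCm38, the same build as mm10, whose RefSeq annotation and sequence were used.

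Window levels were means of the percent over cytosines measured in all 4 mice. The members and lists were chosen with earlier results of these data known. CpGi were called on repeat-masked sequence with a score of 17 for a CpG and -1 for other bases, at a minimum length of 200 bp, which gave 16077 islands. Named windows were the 8 most even with at least 15 cytosines, the 6 with most cytosines, up to 4 genes per list, the 3 smallest p-values (5 had any window been called), the 3 longest runs, those nearest the bounds, and Esr1. Further windows of germline and microRNA genes and the chromosome X windows were named after their values were seen.

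Strains were compared in a quasi-binomial logistic model on methylated and unmethylated reads summed per window, with overdispersion moderated by limma 3.58.1 (R 4.3.3, edgeR 4.0.16) and Benjamini-Hochberg adjustment over 35877 windows. A test on simulated data used a set spread between mice. The moderation first had no trend and recovered 0 of 100 windows changed by 30 points at the wider simulated spread. It was then given a trend on the overall level, after the count of 0 called windows in the real data had been seen, and a narrower spread was added to the simulation, at which the fits without and with the trend recovered 58 and 99 of 100. Coverage and spread were compared over mice with 2 exact sign-flip tests, whose smallest p, also after adjustment over the 2, is 0.13. Both tests used the same windows in each mouse, so they do not cover the choice of windows. Groups hold 2 mice, so the strain p-values set a difference against a spread estimated from these 4 mice and moderated across windows. The only possible pairing is by the replicate number in the labels, and the deviations of same-numbered mice had a correlation of -0.00464 over all windows. Python 3.11.15, numpy 2.4.6, pandas 2.3.3, numba 0.67.0 and matplotlib 3.10.9 were used. At 10 reads the level of 1 cytosine is imprecise, and intervals cover counting error only. Alternatives covered coverage, strands, bounds, cytosine minimum, bin origin, transcripts, distances, repeats, tests and each mouse left out. Chromosome Y, RNA and non-CpG data were not used here, and 1 marker gene is not reported here.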

Additional observations from a re-analysis of the deposited data

How the results depend on the processing

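The number of partly methylated windows followed the rule's settings. With strands merged, each CpG counted once and the minimum was also lowered below 8, so these changes cannot be told apart in the values below. It was 216 with bounds of 35% to 65%, 151 and 742 with minimums of 12 and 5 cytosines, and 809 with strands merged, and within 1.5 times 328 under 13 further alternatives; without each mouse in turn it was 349 to 381. Windows with mostly intermediate cytosines numbered 97, 494 and 544 with 12 cytosines, 5 cytosines and merged strands, 81 with intermediate taken as 30% to 70%, and 216 to 225 without each mouse. The CpGi share was 35.5% at a coverage minimum of 20, 53.0% and 16.8% with minimums of 12 and 5 cytosines, 15.8% with merged strands, and 28.1% to 30.9% without each mouse. The coverage ratio, 0.841 to 0.856 without each mouse, stayed below 1, and the difference in spread from imprinted windows, 10.6 to 11.3 points, above 0, under all 16 alternatives run for each. Of the partly methylated windows, 17 were called between strains by Fisher's exact test on pooled reads, which called 0.725% of all windows. Under the other alternatives that kept 2 mice per strain, 0 were called. These include the moderation without a trend, an alternative chosen after seeing the data. With the replicate block, 0 of the 328 windows and 2 of all windows were called; since same-numbered mice did not deviate together, the numbers give no pairing. Windows of 8 cytosines at the lowest coverage rest on 134 reads in a mouse, and 2 mice per strain limit what strain differences could be detected.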
